A study of Arabidopsis thaliana with 6 samples.

Results

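The XTH genes of Arabidopsis thaliana encode the xyloglucan endotransglucosylase/hydrolases, and the family holds the 33 loci named XTH1 to XTH33. The members were taken by locus: every spot of the arrays that names one of these loci was used. The arrays carry 41 probes for the 33 genes, out of 43603 probes for 29030 genes in all. Of these, 30 XTH genes with 38 probes could be tested, out of 21827 genes with 32370 probes. The RNA came from whole wild-type Col-0 seedlings that had grown in the dark for 3 days at 22 °C and then stood in the dark at 22 °C for 24 h in liquid MS medium with sucrose. The medium of 3 samples held 1 µM lasalocid sodium (LS), a carboxylic ionophore that carries cations across membranes, and that of 3 control samples held 0 µM. Whether the control medium held the solvent of the compound is not given in the sources used here. The labels do not say that the replicates were grown as separate cultures, so the p-values below measure only the spread between these samples, which may be technical.

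Xyloglucan is the main hemicellulose of the primary wall in Arabidopsis, a glucan backbone with xylose side chains that lies against and between cellulose microfibrils. XTH proteins are secreted into the wall, where most of them cut a xyloglucan chain and join the new end to another chain, while a few hydrolyse it. The reaction lets a wall incorporate new xyloglucan and rearrange old chains during growth, and in dark-grown seedlings the hypocotyl is the organ that elongates most. The family falls into groups I and II, whose studied members are transglucosylases, group III-A, which holds the hydrolase type, and group III-B. The comparison asks which XTH transcripts differed between seedlings with and without LS.

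Values are given as log2 of the background-subtracted spot signal relative to the 75th percentile of its array, so that 0 is the level of a fairly bright spot and each unit is a doubling. They serve to compare samples for a gene and not to rank genes against each other, since probes differ in brightness. That percentile was a signal of 1067 to 1447 on the control arrays and 1309 to 2123 on the LS arrays, and 72.6% to 77% of spots were well above background, with 0 saturated. All 3 control arrays shared a slide with LS array 1, and LS arrays 2 and 3 were on another slide. Arrays of the LS group differed from each other by a median of 0.30 to 0.37 per probe, against 0.18 to 0.22 in the control group. LS array 3 stood apart in its spike-in controls, which lay 0.16 above the 75th percentile there and 1.26 to 2.28 above it on the other arrays. Transcripts of PORA and PORB, the protochlorophyllide reductases of etiolated tissue, were above background on all 6 arrays by their brightest probes. So were those of the root genes PYK10 and SCR. The same held for the photosynthesis genes RBCS1A and CAB1, listed as markers of light-grown leaves. A gene was called when limma gave a Benjamini-Hochberg adjusted p under 0.05 over all tested probes with a fold change of at least 1.5. Where a gene has several probes, the brightest tested probe stands for it. In whole seedlings, fewer cells of a type and less RNA per cell cannot be told apart.

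After 24 h with LS, XTH21 and XTH16 were called higher and XTH4 was called lower, and the other 27 tested members were not called. The 2 genes called higher are 6.67% of the 30 tested members, beside 3.18% of all tested genes, and the 1 gene called lower is 3.33%, beside 2.19%. With counts this small the shares for the family are not far from those of all genes. The log2 fold changes of the members ran from -0.88 to 2.37 with a median of 0.21, whereas the median over all tested genes was -0.03. LS was on the higher side in 18 members, or 60%, beside 46.9% of all genes, and on the lower side in 12.

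The groups stood clear of each other in many more members than were called. In 12 members (40%) all LS arrays were above all control arrays, beside 17.6% of all tested genes. In 8 members (26.7%) all LS arrays were below all control arrays, beside 17.9% of all genes. XTH5, which is among the 8, has its control 1 spot missing, and with that spot kept the count is 7 (23.3%). In either direction this is 20 of 30 members, or 66.7% (19 with that spot kept), beside 35.5% of all genes. An unadjusted limma p under 0.05 with the same fold picked out 8 of 30 members as higher, beside 8.82% of all genes. It picked out 5 of 30 as lower, beside 9.03%. With the methods' t-test and no adjustment, 4 of 30 members were higher (XTH16, XTH20, XTH21 and XTH33), beside 5.56% of all genes. By the same test 2 of 30 were lower (XTH4 and, on 2 controls, XTH5), beside 4.51%. The family median against the control mean was 0.31, 0.15 and 0.05 on LS arrays 1, 2 and 3, all above the all-gene medians of -0.025, -0.0035 and -0.016 on the same arrays.

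**Figure D1:**
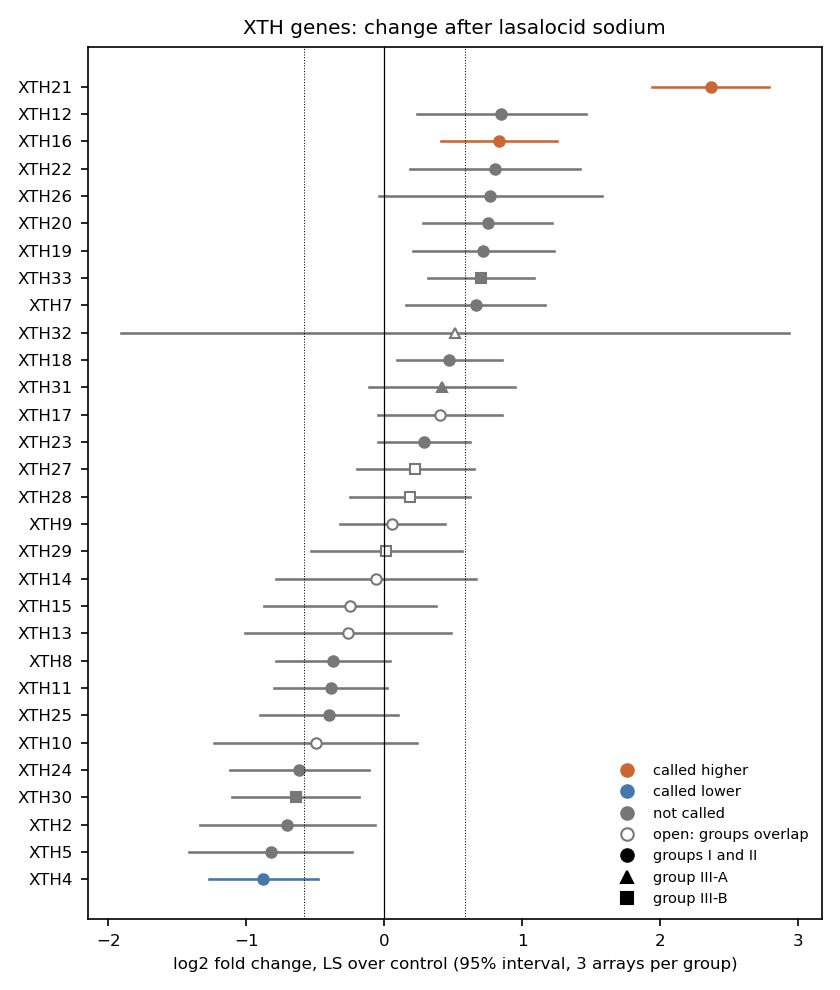
Log2 fold change of LS over control for the 30 tested XTH genes, with the 95% interval from limma over 3 arrays per group and dotted lines at a fold change of 1.5. XTH21 lies alone at 2.37, XTH16 at 0.83 and XTH4 at -0.88 are the other called genes, and the remaining members lie between -0.82 and 0.85, with filled markers where the groups do not overlap.

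The member with the largest difference was XTH21 (AT2G18800), a group I/II gene that is known for its part in primary root growth. Its log2 level was -4.52, -4.77 and -4.99 in control samples 1, 2 and 3 and -2.24, -2.51 and -2.42 in LS samples 1, 2 and 3. The 6 values fell into well separated sets, with the highest control 2 units below the lowest LS sample. XTH21 rose by a log2 fold change of 2.37 (SE 0.18, 95% interval 1.94 to 2.79), a fold of 5.16, with an adjusted p of 0.00428 in limma. This was the 79th highest rise among the 21827 tested genes. Among the 4 arrays that shared a slide the difference was 2.52 (adjusted p of 0.0321 in limma). In this and the other comparisons within the slide 1 LS array stands for the treatment, and the p rests on the spread of the 3 controls, with the LS array assumed to vary like them.

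XTH16 (AT3G23730), also of groups I and II, was the other called rise. Its log2 level was -0.0031, -0.08 and 0.31 in the control samples and 0.98, 0.71 and 1.04 in the LS samples. Every LS sample was higher than every control sample, and the spread was similar in both groups (SD 0.21 and 0.18). The log2 fold change was 0.83 (SE 0.18), a fold of 1.78, with an adjusted p of 0.0459 in limma. The call lies close to the threshold: it was lost on leaving out any 1 of the 6 arrays, with log2 fold changes of 0.75 to 0.95 and adjusted p-values of 0.0503 to 0.168. Within the shared slide, with 1 LS array, the difference was 0.90 (adjusted p of 0.105 in limma).

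**Figure D2:**
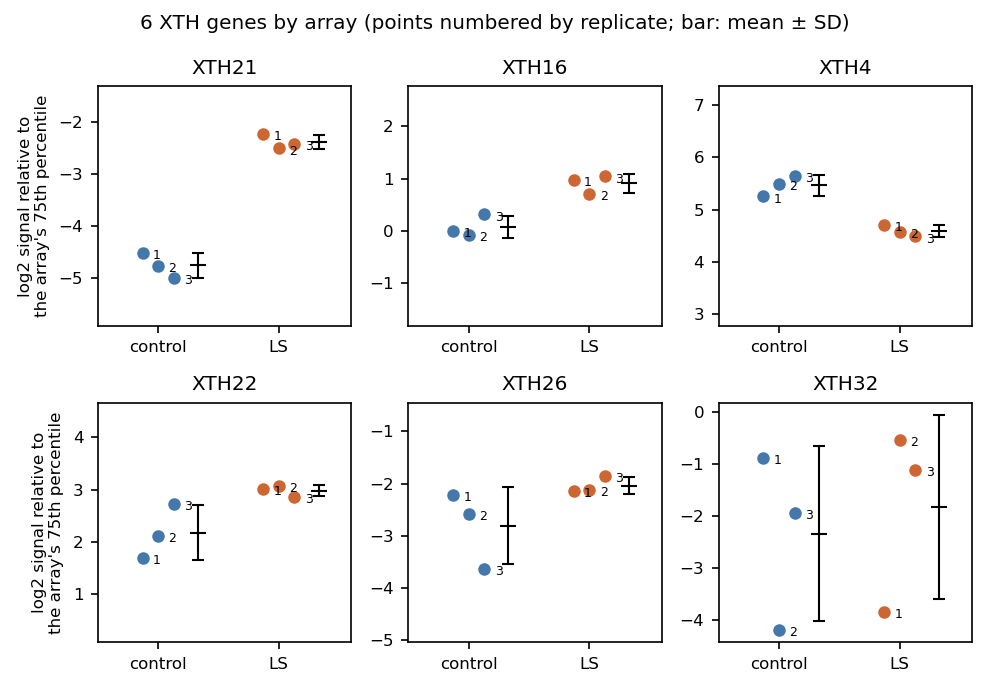
Log2 signal relative to the array's 75th percentile for 6 XTH genes, each point an array numbered by replicate, with the group mean and SD beside the points and the same axis span in every panel. XTH21, XTH16 and XTH4 show separate groups with a narrow spread, XTH22 and XTH26 have wide control groups, and XTH32 is spread over more than 3 units within each group.

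The other members of groups I and II with all LS samples above all control samples were XTH7, XTH12, XTH18, XTH19, XTH20, XTH22, XTH23 and XTH26, none of them called. XTH18, XTH19 and XTH20, with XTH17, are the genes known for expression in growing roots, and XTH19 and XTH20 also for the rejoining of cut stems. XTH20 (AT5G48070) came nearest to the threshold in these groups. Its log2 level was -2.88, -3.08 and -2.73 in the controls and -1.81, -2.30 and -2.32 with LS. The difference was 0.75 (SE 0.20) with an adjusted p of 0.0726 in limma. XTH19 (AT4G30290) measured -1.58, -1.51 and -1.23 in the controls and -0.70, -1.09 and -0.37 with LS, a difference of 0.72 (adjusted p of 0.0977 in limma). XTH18 (AT4G30280) measured 4.77, 4.96 and 5.16 against 5.45, 5.49 and 5.37, a difference of 0.47 (adjusted p 0.129), with LS values that lay within a narrow band. In XTH17 (AT1G65310) LS sample 2 lay among the controls and the difference was 0.41 (adjusted p 0.237). The 4 root genes thus all had LS means above the control means, and 0 of the 4 was called. The root markers did not lie on the same side, and neither did the probes within a marker. For SCR the brightest probe gave 0.73, with all LS arrays above all controls. Its second probe was much dimmer and well above background on only 2 of the 3 LS arrays. That probe gave -1.15, with all LS arrays below all controls. For PYK10, which has 7 probes, the brightest gave -0.79, with all LS arrays below all controls, and the others gave -0.22 to 0.22. The light-grown leaf markers RBCS1A and CAB1 gave -0.86 and -0.58 for their brightest probes, also with all LS arrays below all controls. RBCS1A has 13 probes, and in all the others the groups overlapped, with differences of -0.5 to 0.15. The other CAB1 probes gave -0.84 to -0.26, with overlapping groups in some of them. None of these 4 markers was called (adjusted p-values of 0.0671 to 0.26 in limma for the brightest probes). Their part in the values of the root genes was not tested.

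XTH22 (AT5G57560) is TCH4, the classic touch-induced XTH gene, which also responds to brassinosteroids and to temperature. Its log2 level was 1.69, 2.12 and 2.73 in the controls and 3.01, 3.07 and 2.86 with LS. The LS samples were close together while the controls spanned about a unit, and control 3 came near LS sample 3. The difference of 0.80 (SE 0.26) had an adjusted p of 0.115 in limma. XTH23 (AT4G25810), also named XTR6, had the tightest controls of the family at 2.05, 2.03 and 2.03. Its LS samples were all somewhat higher, at 2.34, 2.24 and 2.38, with a difference of 0.29 and an adjusted p of 0.253.

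XTH7 (AT4G37800) measured 1.15, 1.19 and 0.96 in the controls and 2.17, 1.45 and 1.67 with LS. LS sample 1 was the highest, and the difference was 0.66 (SE 0.22) with an adjusted p of 0.111 in limma. XTH12 (AT5G57530) measured -3.87, -4.16 and -4.73 in the controls and -3.16, -3.72 and -3.33 with LS, a difference of 0.85 (SE 0.26) with an adjusted p of 0.0994. Control 3 of XTH12 lay 0.72 below the mean of controls 1 and 2, and the difference was 0.61 without it. In both genes the gap between the groups was smaller than the larger of the group SDs.

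XTH26 (AT4G28850), a gene known from root hairs, measured -2.22, -2.58 and -3.63 in the controls and -2.14, -2.13 and -1.85 with LS. Control sample 3 was far below the other controls, and controls 1 and 2 came close to the LS samples. The difference of 0.77 (adjusted p of 0.216 in limma) was 0.36 without control 3. Control 3 was also the lowest control for 5 of the 6 root hair markers. It lay below the mean of controls 1 and 2 by 1.87 for COBL9 and by 1.68 for EXPA7 on the log2 scale. For XTH26 the same gap was 1.24. The differences between LS and control were 1.64 for COBL9 and 1.73 for EXPA7 with all arrays, 1.02 and 1.17 without control 3, and 1.44 and 0.81 for EXPA18. The other markers, PRP3, LRX1 and RHD2, gave 0.14, -0.31 and -0.25 with all arrays, and -0.26, -0.51 and -0.23 without control 3. None of the 6 markers was called, and the part of root hair content in the XTH26 value was not tested. XTH14 (AT4G25820), another gene known from root hairs, measured 2.24, 1.65 and 1.54 in the controls and 2.01, 2.11 and 1.13 with LS. Here the groups overlapped (difference -0.06, adjusted p 0.921).

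**Figure D3:**
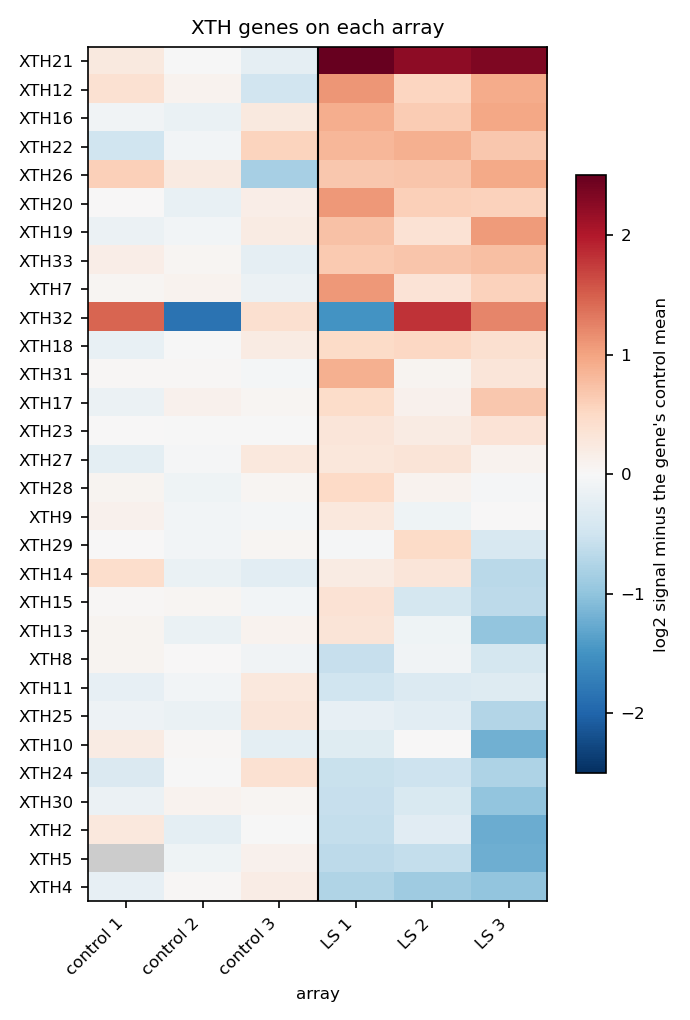
Log2 signal of the 30 tested XTH genes on each array minus the control mean of the gene, ordered by log2 fold change, with the grey cell marking the missing spot of XTH5 on control array 1. XTH21 is high on all 3 LS arrays, XTH26 is low on control 3, and XTH32 runs against its group label on single arrays of both groups.

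XTH4 (AT2G06850) was the only member called lower. It is a group I/II gene with high expression in elongating tissue such as the hypocotyl and stem. Its brightest probe measured 5.25, 5.50 and 5.64 in the controls and 4.71, 4.57 and 4.49 with LS. All LS samples lay below all controls, with a gap larger than the SD of either group (0.20 and 0.11). XTH4 fell by 0.88 on the log2 scale (SE 0.17), a control level 1.84 times that with LS, with an adjusted p of 0.0357 in limma. The second probe of XTH4 was not called: it measured -1.64, -1.67 and -1.28 against -2.01, -2.42 and -1.57, a difference of -0.47 with overlapping groups and an adjusted p of 0.277. The call was lost on leaving out any 1 of the 6 arrays, with log2 fold changes of -0.98 to -0.79 and adjusted p-values of 0.0569 to 0.138. Within the shared slide, with 1 LS array, it was -0.76 (adjusted p of 0.125 in limma).

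The genes nearest to XTH4 in size of decrease were not called. XTH5 (AT5G13870) measured 4.63 and 4.86 on control arrays 2 and 3 and 4.08, 4.15 and 3.53 with LS. The spot of control 1 was marked as an outlier by the image software and left out, so that 2 controls stand behind the difference of -0.82 (SE 0.25, adjusted p of 0.103 in limma). Both remaining controls were above every LS sample. The marked spot itself read 3.02, below every LS sample, and with it kept the difference was -0.25 (adjusted p 0.773), so the lower value of XTH5 rests on leaving out that spot. XTH24 (AT4G30270), first described as the meristem gene MERI5, has 5 probes. The brightest measured 4.22, 4.57 and 4.95 in the controls and 4.01, 4.07 and 3.81 with LS, a difference of -0.62 (adjusted p 0.13). All 5 probes of XTH24 had lower LS means, from -0.66 to -0.18, and none of the 5 was called. XTH2 (AT4G13090), which measured -5.09, -5.60 and -5.37 against -5.94, -5.63 and -6.60, gave -0.70 (SE 0.27, adjusted p 0.16). Control 2 and LS sample 2 nearly met there, and without LS sample 3 the difference was -0.43.

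Smaller differences with separate groups were found in 3 further members. XTH8 (AT1G11545) measured 3.97, 3.90 and 3.80 in the controls and 3.32, 3.80 and 3.44 with LS, a difference of -0.37 (adjusted p of 0.242 in limma). XTH11 (AT3G48580) measured -1.41, -1.29 and -0.94 against -1.71, -1.56 and -1.55, a difference of -0.39 (adjusted p 0.218). XTH25 (AT5G57550) measured 0.22, 0.18 and 0.66 against 0.15, 0.08 and -0.37, a difference of -0.40 (adjusted p 0.287). In each of the 3 the groups only just missed each other. Without control 3 the difference was -0.25 for both XTH11 and XTH25, and without LS sample 3 it was -0.24 for XTH25.

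Members whose groups overlapped included XTH9 and XTH15, which are studied for growth. XTH9 (AT4G03210), known from shoot apices and stems, measured 1.56, 1.40 and 1.42 in the controls and 1.73, 1.36 and 1.48 with LS. Its difference of 0.06 had a 95% interval of -0.32 to 0.44, and its second probe gave 0.12. XTH15 (AT4G14130), a gene induced by shade, measured 5.67, 5.70 and 5.57 in the controls and 6.01, 5.21 and 4.99 with LS. LS sample 1 was above all controls and LS samples 2 and 3 were below them, so that the difference of -0.25 had an interval of -0.87 to 0.38. The second probe of XTH15 gave -0.58 (adjusted p of 0.203 in limma). XTH10 (AT2G14620) and XTH13 (AT5G57540) also overlapped, with differences of -0.50 and -0.26 and adjusted p-values of 0.362 and 0.642.

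Group III-A holds XTH31 and XTH32, whose proteins are of the hydrolase type. XTH31 (AT3G44990), known for its link to aluminium sensitivity, measured 3.80, 3.80 and 3.73 in the controls and 4.66, 3.84 and 4.09 with LS. The LS samples were all higher, LS sample 2 only slightly, and the difference was 0.42 (adjusted p of 0.292 in limma). It was 0.18 without LS sample 1. XTH32 (AT2G36870) was the most variable member. It measured -0.89, -4.18 and -1.95 in the controls and -3.83, -0.53 and -1.11 with LS, with SDs of 1.68 and 1.76. A low and a high sample were present in each group, and the difference of 0.51 had a 95% interval of -1.91 to 2.93.

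Group III-B holds 5 members, and 4 of them had LS means above the control means. XTH33 (AT1G10550), whose protein is held at the plasma membrane, came closest to the threshold of all members that were not called. It measured 0.06, -0.06 and -0.35 in the controls and 0.55, 0.58 and 0.63 with LS. The LS samples were within a narrow band above all controls, and the difference of 0.70 (SE 0.16) had an adjusted p of 0.0551 in limma. XTH30 (AT1G32170) was the member of the group with a lower LS mean: it measured 5.003, 5.24 and 5.19 against 4.58, 4.77 and 4.16. The groups were separate, and the difference of -0.64 (SE 0.20) had an adjusted p of 0.0996. XTH27 (AT2G01850), known as EXGT-A3 for its part in the tracheary elements of leaf veins, measured 2.68, 2.90 and 3.18 in the controls and 3.19, 3.23 and 3.00 with LS. Its groups overlapped for the brightest probe (0.23, adjusted p 0.47) and were separate for the other (0.35, adjusted p 0.246). XTH28 (AT1G14720), a gene of stamen filaments, and XTH29 (AT4G18990) overlapped as well, with differences of 0.19 and 0.02. By subgroup, the median difference was 0.06 over 23 tested members of groups I and II and 0.19 over the 5 of group III-B.

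The remaining 3 members were too dim to be tested. XTH1 (AT4G13080) and XTH3 (AT3G25050) were not well above background on any array. XTH6 (AT5G65730) was well above background on control array 1 only, at -6.96 there and between -9.66 and -8.05 on the other arrays, so no fold is given.

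Several members are neighbours in the genome, and neighbours did not always lie on the same side. XTH24, XTH18 and XTH19 stand side by side with 0 genes between them, and gave -0.62, 0.47 and 0.72. XTH13, XTH25 and XTH22 are likewise adjacent, with XTH12 beyond 1 further gene, and in the order XTH12, XTH13, XTH25, XTH22 they gave 0.85, -0.26, -0.40 and 0.80. XTH23 and XTH14 are adjacent too and gave 0.29 and -0.06. Neighbouring XTH genes can be similar in sequence, and whether a probe also binds the transcript of a related member was not tested, because probe sequences were not used here.

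The 3 calls differed in how they held under other ways of processing the arrays. XTH21 was called under 22 of 23 alternatives, the exception being the methods' t-test after adjustment (adjusted p 0.188). Its log2 fold changes ran from 1.51 with the normexp background correction to 3.27 with spike-in scaling. XTH16 was called under 10 and XTH4 under 8 of the 23. Some alternatives could not lose a call, such as limma's unadjusted p and no fold threshold. Ignoring outlier marks left the differences of these 3 genes unchanged. The slide block and the fit within the shared slide gave equal differences. The counts are therefore no measure of how firmly a call held. Scaling the arrays on their spike-in controls moved the median of all genes from -0.03 to 0.88, so that 30 of 30 members were above 0, 9 were called higher and 0 lower, and XTH4 stood at 0.03. Over all genes this scaling called 1822 higher and 27 lower, against 694 and 478. Relative to the median of all genes, XTH4 was at -0.845 under both scalings. This equality follows from the arithmetic, since each scaling subtracts a constant per array from all genes. It is therefore no test of the XTH4 decrease. Quantile normalization gave 4 members higher (XTH16, XTH18, XTH21 and XTH33) and 0 lower.

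**Figure D4:**
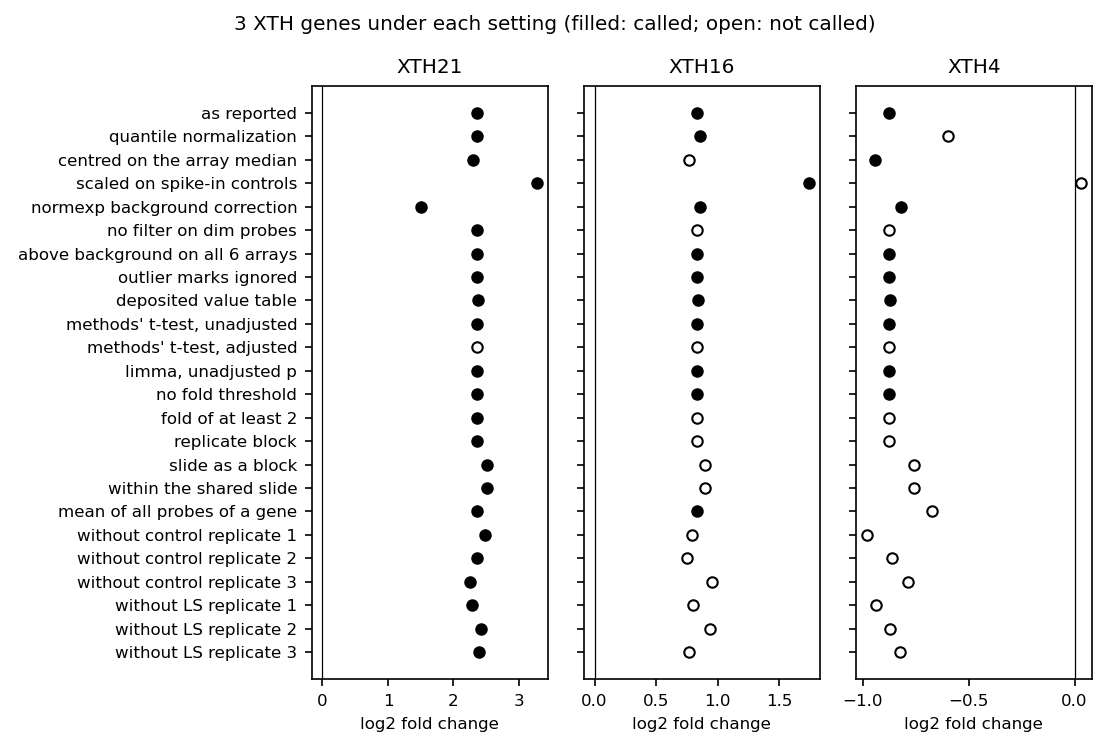
Log2 fold change of XTH21, XTH16 and XTH4 under the reported setting and 23 alternatives, with filled points where the gene was called. XTH21 is filled in all but the adjusted t-test, XTH16 and XTH4 are open whenever an array is left out, and the spike-in scaling moves all 3 genes upward.

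The enzymes that build the polymer were compared in the same fit. Of a list of 20 other xyloglucan genes, 19 were tested, the O-acetyltransferase gene AXY4L being too dim. The list was chosen with earlier results of these data known. Its shares beside those of all genes therefore describe the list and are no test. In this list 4 genes (21.1%) were called higher and 0 lower, beside 3.18% and 2.19% of all tested genes. At an unadjusted limma p under 0.05 with the same fold, 5 of 19 were higher and 1 of 19 lower, beside 8.82% and 9.03%. The methods' t-test without adjustment gave 4 of 19 higher and 0 lower, beside 5.56% and 4.51% of all tested genes. The list had a median log2 fold change of 0.42, and on LS arrays 1, 2 and 3 it was 0.51, 0.26 and 0.52. All 14 tested genes of synthesis (100%) had LS means above the control means by their brightest probe, beside 46.9% of all tested genes. Their median log2 fold change was 0.60. The dimmer probe of the synthesis gene MUR3 went the other way, at -1.25. Of the 5 genes of trimming, which remove side-chain and backbone sugars in the wall, 1 had a higher LS mean, the median was -0.06, and 0 were called.

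The largest called rise of the list was AXY4, which encodes the enzyme that acetylates xyloglucan galactose. It measured -0.31, -0.95 and -0.88 in the controls and 0.56, 0.72 and 0.65 with LS. It rose by 1.35 (SE 0.21) with an adjusted p of 0.0261 in limma. CSLC12, of the family of glucan backbone synthases, measured -4.32, -4.50 and -4.97 against -3.62, -3.74 and -3.27. It rose by 1.05 (SE 0.22, adjusted p 0.044). In both genes every LS sample was above every control sample. XLT2, a xyloglucan galactosyltransferase, measured -0.91, -0.86 and -0.99 against -0.09, -0.16 and 0.06 and rose by 0.85 (SE 0.15, adjusted p 0.0302), and its second probe was called as well at 0.90. XXT3, of the xylosyltransferase family, measured -2.57, -2.75 and -2.28 against -1.69, -1.82 and -1.69 and rose by 0.80 (SE 0.17, adjusted p 0.0457). CSLC4, the best-studied backbone synthase gene, gave 0.03 (adjusted p 0.913), so that the genes of synthesis did not all differ by a like amount.

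Among the other genes of the list, the probes of MUR3, the second galactosyltransferase, pointed in opposite directions, at 0.63 for the brighter and -1.25 for the dimmer, neither called. The 2 lowest values of the list were those of BGAL10, the apoplastic β-galactosidase, and of BGLC3, a β-glucosidase. BGAL10 measured 2.04, 2.03 and 2.03 in the controls and 1.04, 1.20 and 1.81 with LS, a difference of -0.69 (SE 0.22, adjusted p of 0.11 in limma), while BGLC3 gave -0.16. The controls of BGAL10 were almost equal and all LS samples were below them, LS sample 3 by the least. None of the 4 calls of the list was made within the shared slide, where only LS array 1 stands for the treatment, and between 0 and 2 genes were called higher when an array was left out.

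**Figure D5:**
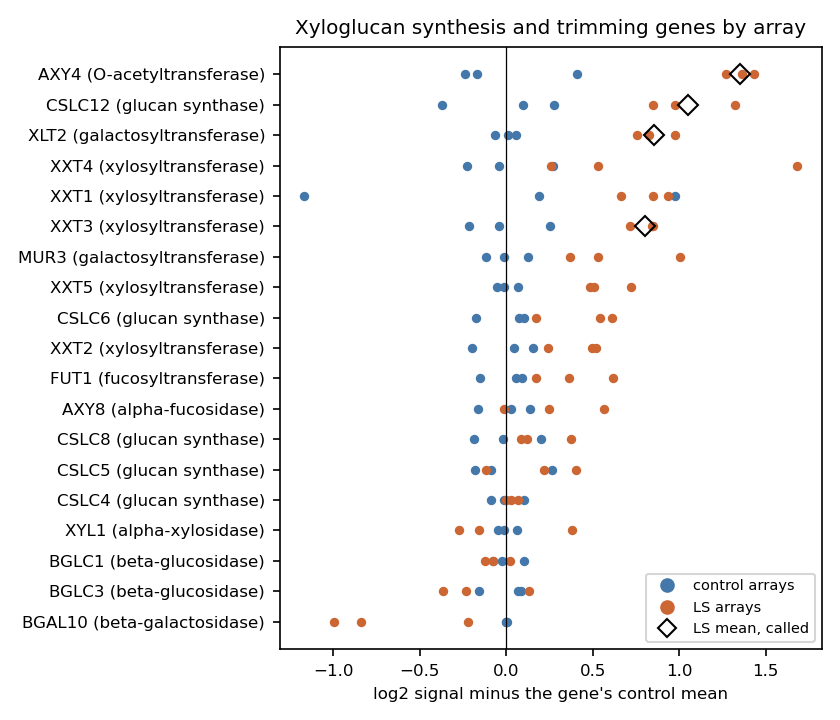
Log2 signal on each array minus the control mean for the 19 tested genes of xyloglucan synthesis and trimming, with control arrays in blue, LS arrays in orange and open diamonds at the LS mean of called genes. The 4 called genes are AXY4, CSLC12, XLT2 and XXT3, and the LS arrays of BGAL10 lie to the left of the controls.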

How the data were processed

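Cy3-labelled RNA of 6 seedling samples was hybridised to single-colour Agilent arrays. The authors ran Agilent Feature Extraction (version 10.7.3.1 per the file headers), and its processed signal, a background-subtracted intensity on a linear scale, is what the authors deposited for each spot. A second file deposited by the authors lists 38614 spots as a ratio, the processed signal over the 75th percentile of each array, which was used as an alternative. Other columns used are the deposited marks of the image software for spots above background, saturated or outlying, and median signals.

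From these, 1417 control spots were left out, and each log2 signal was set relative to the 75th percentile of its own array. Spots marked as non-uniform or population outliers were set missing, which touched 257 tested probes, and spots of a probe were averaged. Probes were tested where all 3 arrays of a group, or of both, read well above background. The groups were compared with limma 3.58.1 (lmFit, eBayes) in R 4.3.3, with Benjamini-Hochberg adjustment over all tested probes. The processing was tested on simulated data. The number of arrays, 3 per group, limits the precision. Loci come from the arrays, and all 33 XTH loci matched the TAIR10.1 table, which was used for names and neighbours only, since the array design names an older build.

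Values on each array are given for members with a called probe or with separate groups and for XTH4, XTH9, XTH15, XTH22, XTH24, XTH27, XTH31 and XTH33. From the xyloglucan list every called gene and the 2 largest changes in each direction are named, and CSLC4, MUR3, XTH14 and XTH32 were added after their values were seen. The members and lists were chosen with earlier results of these data known. The 23 alternatives covered normalization, background correction, the filter on dim probes, outlier marks, the deposited table, the test, the fold threshold, blocks for replicate number and slide, the mean of all probes, and each array left out. The normexp correction used the median signal with an offset of 50. Deviations of same-numbered samples of the groups had correlations of 0.03, -0.12 and -0.19, and those of differently numbered samples ran from -0.13 to 0.2. Each deviation is taken from the mean of only 3 arrays, so these values cannot decide whether the numbers pair the samples.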

Additional observations from a re-analysis of the deposited data

How the results depend on the processing

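Counts of XTH genes called, 2 higher and 1 lower as reported, were 4 and 0 under quantile normalization, 9 and 0 under spike-in scaling, 4 and 2 with the methods' t-test unadjusted, 0 and 0 with it adjusted, and 8 and 5 with limma's unadjusted p. They were 1 and 0 with no filter on dim probes, with a fold of at least 2, with the replicate block, with the slide as a block and within the shared slide. Under median centring 1 was called higher, with the mean of all probes 0 were called lower, and with an array left out each of the 6 fits called 1 higher and 0 lower. The XTH median was 1.11 under spike-in scaling, 0.060 with no filter, where 33 members enter, and 0.08 to 0.25 with an array left out. For the xyloglucan list, 0 genes were called higher with no filter, the adjusted t-test, the replicate block, the slide block and within the shared slide, 2 with a fold of 2, and 0 to 2 with an array left out. Lower calls there numbered 1 with limma's unadjusted p and 0 to 1 with an array left out, and the median was 1.32 under spike-in scaling. Over all probes, 840 higher and 793 lower as reported became 2488 and 43 (spike-in), 135 and 107 (no filter), 1517 and 1632 (t-test unadjusted), 1 and 0 (adjusted), 2531 and 3297 (limma unadjusted), 197 and 167 (replicate block), 24 and 83 (slide block) and 71 and 207 (within the slide), 559 were higher with a fold of 2, and with an array left out 38 to 735 were higher and 12 to 661 lower. Sample numbers are shared between the groups, and whether they pair the samples is not known. XTH21 was the member called with the replicate block (adjusted p 0.0249 in limma).

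Signs turned for members that were not called, except XTH4 under spike-in scaling (0.030). That scaling shifts all genes, and it also gave XTH2 0.20, XTH5 0.23, XTH8 0.54, XTH10 0.41, XTH11 0.52, XTH13 0.64, XTH14 0.85, XTH15 0.66, XTH24 0.29, XTH25 0.51 and XTH30 0.26. XTH15 was 0.043 under quantile normalization, XTH9 -0.0078 and XTH29 -0.051 under median centring, and XTH29 -0.10 with normexp. With the slide as a block and within the slide, XTH13 was 0.31, XTH14 0.20, XTH15 0.36, XTH29 -0.030 and XTH32 -1.49. With an array left out, XTH9 was -0.044 to 0.14, XTH13 -0.55 to 0.10, XTH14 -0.24 to 0.25, XTH29 -0.22 to 0.22 and XTH32 -0.41 to 1.51. Beyond the scaling and the number of arrays or probes tested, the cause was not tested. Signal over background limited XTH1, XTH3 and XTH6.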

Other observations

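In the 5 XTH genes with several probes, the dimmest and the brightest probe of a gene did not move alike on LS array 3. The deviation from the control mean of the dimmest probe minus that of the brightest was highest on LS array 3 in all 5 genes. On the log2 scale it was 0.94 for XTH4, 0.68 for XTH24, 0.38 for XTH27, 0.36 for XTH9 and 0.20 for XTH15. In XTH15 the difference was larger in size, and negative, on LS arrays 1 and 2, at -0.55 and -0.66. Over 6057 genes with several tested probes the median of this difference was 0.23 on LS array 3, 0.05 and -0.14 on LS arrays 1 and 2, and -0.03 to 0.03 on the control arrays. LS array 3 is also the array whose spike-in controls stood apart, and the part of either in the values of dim probes was not tested.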
